A study of Mus musculus with 6 samples.

Results

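The 10 cell fusion genes examined here are Dcstamp, Ocstamp, Tm4sf19, Cd9, Cd81, Cd82, Cd47, Sirpa, Adam8 and Cd44. They were chosen by gene symbol as the rows of the gene-level table that encode fusion proteins of osteoclast precursors, tetraspanins and their partners. Earlier results of these data were known at that choice. All 10 were found among 45706 genes. The cells are macrophages grown from mouse bone marrow, primary cells whose messenger RNA was sequenced in 6 libraries. Of these, 2 came from cells kept for 1 day with RANKL and sodium acetate, 2 from cells kept for 1 day with RANKL alone, and 2 from untreated cells at day 0. RANKL is the cytokine that starts osteoclast formation, and acetate is a short-chain fatty acid. The labels give no doses, no mouse strain, age or sex, and no word on whether the libraries of a group came from separate animals or cultures, so p-values measure only the spread between these libraries, which may be technical. No untreated library at day 1 and no library with acetate alone was analysed, so RANKL and the day of culture cannot be told apart in the comparisons with day 0.

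An osteoclast is a multinucleated cell that resorbs bone, and it forms when mononuclear precursors of the macrophage lineage fuse. DC-STAMP and OC-STAMP, multipass membrane proteins encoded by Dcstamp and Ocstamp, are needed for that fusion in mice, and TM4SF19 is a small multipass protein that is also linked to multinucleation. Tetraspanins such as CD9, CD81 and CD82 organise other proteins in the membrane, CD47 on one cell binds SIRPα on another, ADAM8 is a cell-surface metalloprotease-disintegrin, and CD44 is the receptor for hyaluronan that also binds osteopontin.

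The sequences below illustrate the Cd44 transcripts and some of the promoter windows described later, and no test rests on them. The first pair shows where the main Cd44 transcripts part after exon 5. Both read the same exon 5, chr2:102853015-102853236 on the minus strand of GRCm38 in GENCODE M21. Cd44-203, the form without variant exons, then joins to an exon 6 at chr2:102828542-102828610. Cd44-207 joins to a different exon 6, at chr2:102842261-102842377. The last 15 bases of exon 5 are in lower case and the first 15 bases of exon 6 in capitals.
Cd44-203: gcaccttggccaccaGAGATCGAGACTCAT
Cd44-207: gcaccttggccaccaATATAGACAGAATCA

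The promoter windows of Tm4sf19 and Cd82, which rose with RANKL, and of Cd81, which fell, are shown 5′ to 3′ with each CpG dinucleotide in capitals. They are RefSeq windows on GRCm38.p6 that run from 250 bases before to 50 bases after an annotated start. The Tm4sf19 window is chr16:32400256-32400555 on the plus strand, the Cd82 window is chr2:93462453-93462752 on the minus strand and belongs to the start of Cd82-201, and the Cd81 window is chr7:143052500-143052799 on the plus strand.
Tm4sf19: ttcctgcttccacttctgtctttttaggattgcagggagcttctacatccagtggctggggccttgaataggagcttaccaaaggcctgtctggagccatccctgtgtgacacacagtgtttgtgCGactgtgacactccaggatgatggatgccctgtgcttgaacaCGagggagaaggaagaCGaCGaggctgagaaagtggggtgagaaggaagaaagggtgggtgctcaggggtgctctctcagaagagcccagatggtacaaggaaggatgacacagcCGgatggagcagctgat
Cd82: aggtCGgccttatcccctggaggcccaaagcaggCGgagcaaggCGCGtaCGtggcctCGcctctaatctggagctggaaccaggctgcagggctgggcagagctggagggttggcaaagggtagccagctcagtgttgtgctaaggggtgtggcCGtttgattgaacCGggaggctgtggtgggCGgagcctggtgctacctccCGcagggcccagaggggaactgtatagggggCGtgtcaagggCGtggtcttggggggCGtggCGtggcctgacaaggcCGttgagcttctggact
Cd81: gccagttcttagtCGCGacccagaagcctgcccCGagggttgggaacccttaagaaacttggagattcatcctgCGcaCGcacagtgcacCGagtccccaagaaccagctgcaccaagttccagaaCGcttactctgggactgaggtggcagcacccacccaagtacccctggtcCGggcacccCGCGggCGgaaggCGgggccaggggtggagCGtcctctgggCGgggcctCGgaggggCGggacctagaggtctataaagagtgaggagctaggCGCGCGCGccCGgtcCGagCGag

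These 3 windows hold 5, 15 and 23 CpG dinucleotides, beside a median of 7 over 32851 windows of the same length. Of the 10 genes, 7 matched the table, with 11 windows between them. Dcstamp, Ocstamp and Sirpa had no window, so their promoters are not described here. Adam8 and Cd44 had 6 CpG each, Cd9 had 18, and the Cd47 windows had 35 and 36. Exact letters of 6 motifs were searched on both strands. The share of all windows that hold each was 5.2% for the AP-1 site TGAGTCA, 1.79% for the CRE site TGACGTCA, 61.3% for the NFAT core GGAAA, 3.2% for the PU.1 core GAGGAAGT and 20.4% for the E-boxes CACGTG or CATGTG. The NF-kB consensus, the last of the 6, was in 0.155% of all windows and in none of the 11. None of these letters occurred in any of the 3 windows printed, nor in the windows of Adam8 and Cd47. Cd44 and Cd9 each held 2 NFAT cores, and Cd9 also held an E-box. A further Cd82 window, around the annotated start at position 93461851, held 4 NFAT cores and a PU.1 core. Another, around the annotated start at 93452672, held 1 NFAT core. A match, or its absence, describes these letters in this window only.

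Libraries held from 9997515 to 11254944 expected counts, the read numbers that RSEM assigns to each gene. Of the 45706 genes, 12224 had enough counts to be tested, and all 10 fusion genes were among them. Dcstamp, Ocstamp and Tm4sf19 passed that filter through the RANKL groups, so a difference from day 0 was built into their being tested. The 2 libraries of each group differed by more than sampling noise but far less than libraries of different groups, with a chi-square per gene of 1.94 to 2.61 within groups and 27.15 to 165.7 between them. The macrophage label fits the markers: 7 macrophage genes summed to 11900 to 12100 CPM (counts per library total, adjusted by TMM factors) with RANKL and acetate, 5660 to 5730 with RANKL and 17600 to 18000 at day 0. Markers of B, T or NK, dendritic, stromal, erythroid and mast cells stayed under 6 CPM in sum in every library. Neutrophil markers summed to 118 to 122 CPM with RANKL and acetate, 118 with RANKL and 149 to 155 at day 0. Endothelial markers, with Emcn at 0, summed to 18.7 to 24.0 CPM with RANKL and acetate, 7.54 to 11 with RANKL and 24.5 to 24.9 at day 0, and megakaryocyte markers to 16.2 to 18.4 CPM over all libraries.

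With RANKL and acetate, Dcstamp, Ocstamp and Tm4sf19 were lower than with RANKL alone and Cd81 was higher. Dcstamp and Ocstamp stood at 29.3% and 23.6% of their RANKL levels and Tm4sf19 at 41.7%, while Cd81 stood at 215%. In edgeR's quasi-likelihood fit, with p-values adjusted by Benjamini and Hochberg's method over all genes tested, 10 of the 10 genes were called at an adjusted p under 0.05, 6 higher and 4 lower, beside 30.4% of all genes tested. Over all genes, 16.7% were higher and 13.7% lower. As the 10 were chosen with earlier results of these data known, their count is a description and no test of the set. The calls of Cd82, Cd44, Adam8 and Tm4sf19 were lost in some alternative analyses, as given below. The median log2 fold change of the 10 was 0.13 and its median size 0.38, beside 0 and 0.18 over all genes tested. At least 2-fold and called, 1 was higher and 3 were lower, beside 3.7% and 1.5% of all genes. The libraries of both groups did not overlap for any of the 10, which was also so for 62.9% of all genes tested.

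With RANKL alone against day 0, 9 of the 10 were called, 5 higher and 4 lower, beside 66.3% of all genes tested, 32.8% higher and 33.5% lower. Cd47 was the exception. The libraries of both groups did not overlap for any of the 10, which was also so for 81.4% of all genes. The median log2 fold change of the 10 was 0.24 and its median size 1.72, beside 0.01 and 0.46 over all genes. At least 2-fold and called, 4 were higher and 2 lower, beside 8.43% and 13.3% of all genes. With RANKL and acetate against day 0, 10 of the 10 were called, 7 higher and 3 lower, beside 60.7% of all genes tested, 30.3% higher and 30.4% lower. Their median was 0.50 and their median size 1.06, beside 0 and 0.40 over all genes. At least 2-fold and called, 4 were higher and 1 was lower, beside 7.35% and 9.26% of all genes, and no gene of the 10 had overlapping groups, as for 78.6% of all genes. Dcstamp, Ocstamp and Tm4sf19 are among the genes counted as higher in both comparisons with day 0. Their difference from day 0 was built into their being tested, so these counts give no support for it. The 3 comparisons share libraries, so they are set side by side and not counted against each other. As these are bulk libraries, fewer cells of a type and less RNA per cell cannot be told apart.

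**Figure D1:**
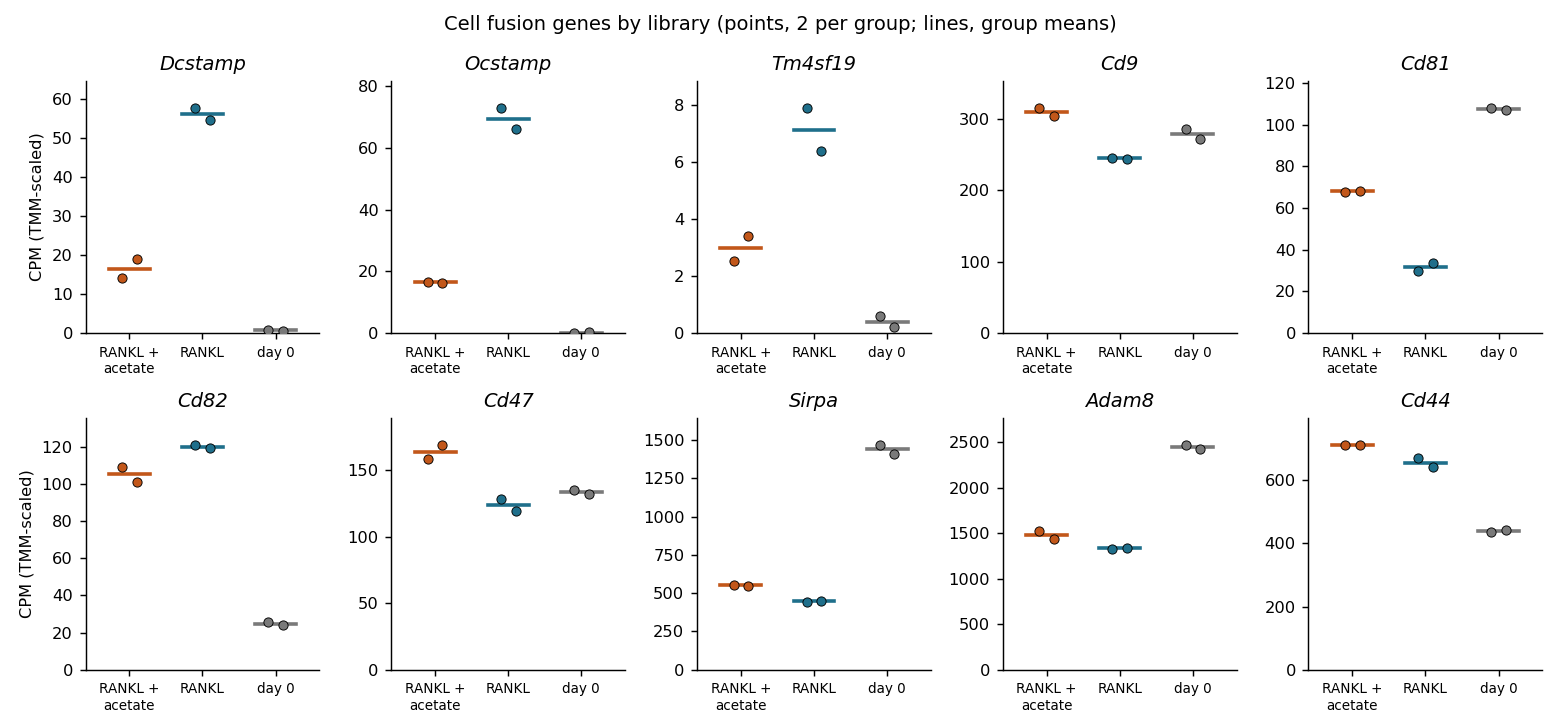
Levels of the 10 genes in TMM-scaled CPM (vertical axes, each from 0) with RANKL and acetate, with RANKL alone and at day 0. Points are the 2 libraries of a group and lines their means. Dcstamp was at 14.0 and 18.9 CPM with RANKL and acetate, against 57.7 and 54.7 CPM with RANKL and under 1 CPM at day 0.

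Dcstamp (ENSMUSG00000022303, chr15:39745930-39760938, plus strand) has 1 deposited transcript, with 4 exons in GENCODE M21. Dcstamp had 144 and 194 counts with RANKL and acetate, 673 and 610 with RANKL, and 9 and 5 at day 0. In CPM it stood at 14.0 and 18.9 with RANKL and acetate, 57.7 and 54.7 with RANKL, and 0.891 and 0.523 at day 0. The groups were far apart, and the acetate libraries differed from each other more than the RANKL libraries did, with an SD of 3.53 around a mean of 16.5 CPM, beside 2.11 around 56.2 CPM (n = 2 each). Dcstamp fell by 1.77 ± 0.12 on the log2 scale (SE) with acetate beside RANKL alone, at an adjusted p of 1.56e-14 in edgeR. It was 22.7-fold higher with RANKL and acetate than at day 0, a log2 fold change of 4.51 ± 0.27 (adjusted p = 2.79e-16). With RANKL alone it was 77.6-fold higher than at day 0. Dcstamp passed the filter through the RANKL groups, so the p-value against day 0 gives no separate support.

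Ocstamp (ENSMUSG00000027670, chr2:165393760-165400405, minus strand), with 1 transcript of 3 exons, had 170 and 167 counts with RANKL and acetate, 851 and 737 with RANKL, and 0 and 2 at day 0. Both day 0 counts came from replicate 2, so the level at day 0 rests on that library. In CPM the acetate libraries stood at 16.5 and 16.3 and the RANKL libraries at 73.0 and 66.1. The acetate level was a 4.24-fold decrease, a log2 fold change of -2.08 ± 0.11 (edgeR adjusted p = 2.19e-17). The ratio of counts to day 0 was 161 with RANKL and acetate, with an exact 95% counting interval of 44.3 to 1340, and 684 with RANKL alone, with an interval of 189 to 5650. These intervals cover counting error only.

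Tm4sf19 (ENSMUSG00000079625, chr16:32400506-32408227, plus strand), with 1 transcript of 5 exons, was the least abundant of the 10 on the TPM scale in both RANKL groups. It had 26 and 35 counts with RANKL and acetate, 92 and 71 with RANKL, and 6 and 2 at day 0. In CPM it stood at 2.52 and 3.42 with RANKL and acetate, 7.89 and 6.37 with RANKL, and 0.594 and 0.209 at day 0, so the 3 groups stood apart, at low counts. Tm4sf19 fell by 1.26 ± 0.28 on the log2 scale with acetate beside RANKL alone (edgeR adjusted p = 0.000656). That call was lost when deposited TPM or FPKM were tested with limma on a log2 scale with 0.1 added, at adjusted p = 0.0976 and 0.0823. Beside day 0 it rose by 2.83 ± 0.49 with RANKL and acetate (adjusted p = 7.02e-06) and by 4.09 ± 0.42 with RANKL alone (adjusted p = 1.67e-10). These last 2 values rest on 8 counts at day 0: without day 0 replicate 1 they were 3.75 and 5.02, and without replicate 2 they were 2.30 and 3.57. Tm4sf19 also passed the filter through the RANKL groups, so neither p-value against day 0 gives separate support.

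**Figure D2:**
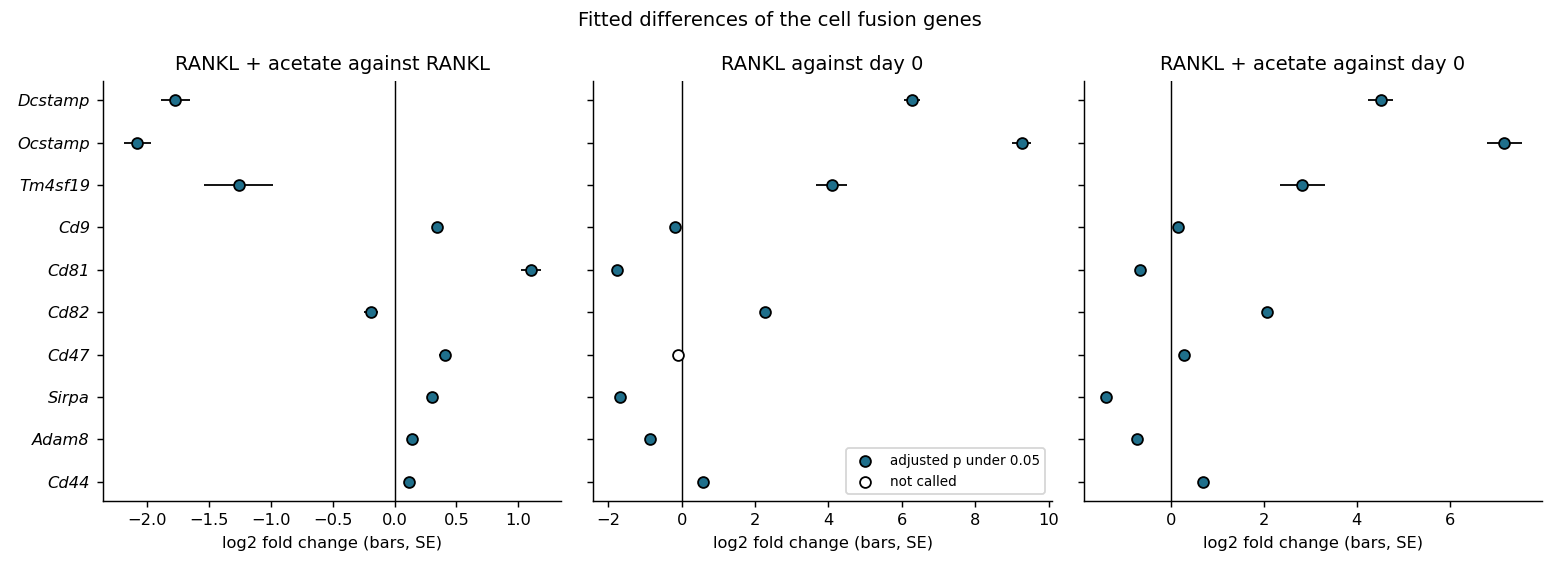
Fitted log2 fold changes (horizontal axes, with SE bars) of the 10 genes in the 3 comparisons. Filled points passed an edgeR adjusted p of 0.05, and the open point is Cd47 in RANKL against day 0. With acetate beside RANKL alone, Dcstamp, Ocstamp and Tm4sf19 lie at -1.77, -2.08 and -1.26 and Cd81 at 1.10.

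Among the 3 tetraspanins, Cd82 rose in both RANKL groups beside day 0, Cd81 fell in both, and Cd9 differed by at most 1.27-fold in any comparison. Cd81 (ENSMUSG00000037706, chr7:143052739-143067934, plus strand) had 67.9 and 68.0 CPM with RANKL and acetate, 29.7 and 33.5 with RANKL, and 108 and 107 at day 0. The groups were well separated, with the acetate libraries lying between the others. Cd81 was 2.15-fold higher with acetate than with RANKL alone, a log2 fold change of 1.10 ± 0.08 (edgeR adjusted p = 1.03e-13). Against day 0 it fell by 0.66 ± 0.07 with RANKL and acetate (adjusted p = 1.52e-10) and by 1.77 ± 0.07 with RANKL alone (adjusted p = 6.76e-21). All 3 of these calls held under each of 18 alternative analyses. R74862, an antisense gene that shares exon bases with Cd81, had 1 to 5 counts per library.

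Cd82 (ENSMUSG00000027215, chr2:93419111-93463140, minus strand) had 109 and 101 CPM with RANKL and acetate, 121 and 119 with RANKL, and 25.5 and 24.2 at day 0. Both RANKL groups were far above day 0 and close to each other. Cd82 rose 4.22-fold with RANKL and acetate beside day 0, a log2 fold change of 2.08 ± 0.08 (edgeR adjusted p = 4.06e-22), and 4.81-fold with RANKL alone, 2.27 ± 0.08 (adjusted p = 8.4e-24). The difference between the RANKL groups was small, -0.19 ± 0.06 (adjusted p = 0.0132). It was not called by DESeq2 (adjusted p = 0.141), nor without RANKL with acetate replicate 2 (-0.14, adjusted p = 0.19), RANKL replicate 1 (-0.18, adjusted p = 0.0906) or RANKL replicate 2 (-0.20, adjusted p = 0.0519).

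Cd9 (ENSMUSG00000030342, chr6:125460266-125494791, minus strand) had 315 and 304 CPM with RANKL and acetate, 245 and 244 with RANKL, and 286 and 271 at day 0. The acetate libraries were the highest of the 6 and the RANKL libraries the lowest. Cd9 was 1.27-fold higher with acetate than with RANKL alone, a log2 fold change of 0.34 ± 0.04 (edgeR adjusted p = 4.59e-08). It was lower with RANKL alone than at day 0 by a small margin, -0.19 ± 0.04 (adjusted p = 0.000175), which was -0.07 with libraries scaled by their totals alone (adjusted p = 0.119) and -0.08 on the FPKM scale (adjusted p = 0.171). With RANKL and acetate it was 0.15 ± 0.04 above day 0 (adjusted p = 0.00244), and without day 0 replicate 2 that was 0.12 and not called (adjusted p = 0.0596). The antisense gene Gm26728, which overlaps Cd9 exons, had 0 counts in every library.

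Sirpa, which encodes the receptor SIRPα, fell in both RANKL groups beside day 0, and Cd47, which encodes its ligand, was highest with RANKL and acetate. Sirpa (ENSMUSG00000037902, chr2:129592835-129632228, plus strand) had 554 and 547 CPM with RANKL and acetate, 445 and 451 with RANKL, and 1470 and 1410 at day 0. The groups did not overlap, and day 0 was highest by a wide margin. Sirpa was at 38.3% of its day 0 level with RANKL and acetate, a log2 fold change of -1.39 ± 0.03 (edgeR adjusted p = 4.89e-27), and at 31.2% with RANKL alone, -1.68 ± 0.03 (adjusted p = 1.03e-29). Between the RANKL groups it was 1.23-fold higher with acetate, 0.30 ± 0.04 (adjusted p = 2.11e-08). Sirpa resembles the Sirpb1 genes, and reads from near-identical stretches could be split between them, which was not tested. All 6 Sirpa expected counts were whole numbers to within 0.005, as were 97.1% of all gene counts. The summed macrophage markers given above were also lowest with RANKL and highest at day 0, and their part in the results for Sirpa, Cd81 and Adam8 was not tested.

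Cd47 (ENSMUSG00000055447, chr16:49800533-49915010, plus strand), the ligand of SIRPα that also marks cells against phagocytosis, had 158 and 169 CPM with RANKL and acetate, 128 and 119 with RANKL, and 135 and 132 at day 0. The acetate libraries were highest, and RANKL and day 0 lay close together. Cd47 was 1.33-fold higher with acetate than with RANKL alone, a log2 fold change of 0.41 ± 0.05 (edgeR adjusted p = 1.33e-07), and 0.29 ± 0.05 above day 0 (adjusted p = 1.22e-05). For RANKL alone against day 0 the value was -0.11 ± 0.05 and was not called (adjusted p = 0.0675). The sign of that value turned with the unit: it was 0.10 and 0.09 on log2 TPM scales with 0.1 and 1 added, 0.21 on the FPKM scale (limma adjusted p = 0.0447) and 0.01 with library totals alone. Without RANKL replicate 1 it was -0.16 and was called (adjusted p = 0.0345). Cd47 is therefore given no direction between RANKL and day 0.

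Adam8 (ENSMUSG00000025473, chr7:139978932-139992562, minus strand) was the most abundant of the 10 on the TPM scale. It had 1520 and 1430 CPM with RANKL and acetate, 1330 and 1340 with RANKL, and 2470 and 2420 at day 0. Day 0 was highest in both libraries. Adam8 fell to 60.4% of its day 0 level with RANKL and acetate, a log2 fold change of -0.73 ± 0.03 (edgeR adjusted p = 1.15e-20), and to 54.7% with RANKL alone, -0.87 ± 0.03 (adjusted p = 3.95e-23). The difference between the RANKL groups, 0.14 ± 0.03 (adjusted p = 0.00033), was not called on log2 TPM or FPKM scales, where the adjusted p ran from 0.0601 to 0.0839. The antisense gene Gm16201 shares exon bases with Adam8 and had 59 to 127 counts, beside 14667 to 24909 for Adam8. The sources used here do not say whether counting used strand.

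Cd44 (ENSMUSG00000005087, chr2:102811141-102901665, minus strand) had 712 and 710 CPM with RANKL and acetate, 669 and 640 with RANKL, and 436 and 442 at day 0. Both RANKL groups were above day 0. Cd44 rose 1.62-fold with RANKL and acetate, a log2 fold change of 0.70 ± 0.04 (edgeR adjusted p = 7.52e-18), and 1.49-fold with RANKL alone, 0.58 ± 0.04 (adjusted p = 8.06e-16). The acetate and RANKL groups differed by 0.12 ± 0.04 (adjusted p = 0.01), and 7 of 18 alternatives did not call that difference, with an adjusted p up to 0.199. Among these were the fits without RANKL with acetate replicate 1 (0.12, adjusted p = 0.0738), RANKL with acetate replicate 2 (0.12, adjusted p = 0.0646) and RANKL replicate 2 (0.08, adjusted p = 0.149).

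**Figure D3:**
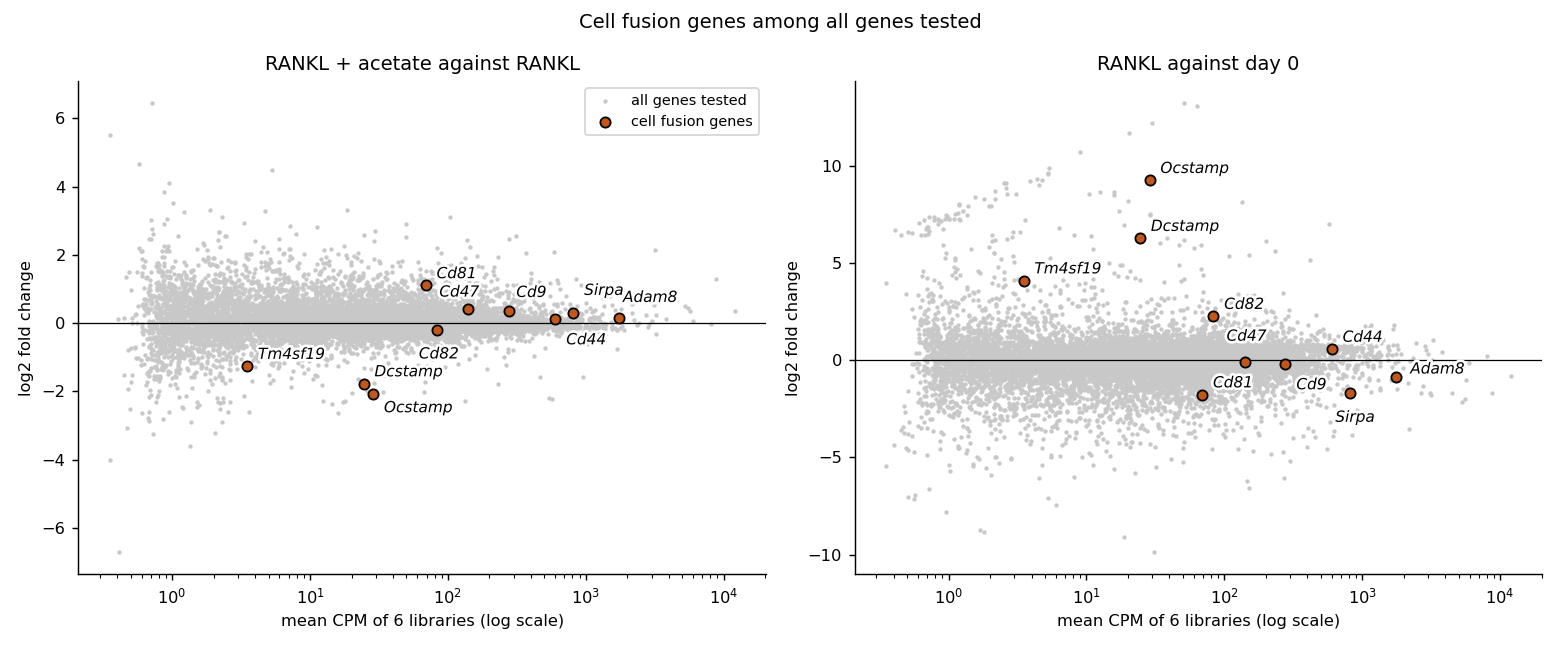
Log2 fold change (vertical axis) against mean CPM of the 6 libraries (horizontal axis, log scale) for all 12224 genes tested in grey and the 10 fusion genes in colour. Left, RANKL with acetate against RANKL, and right, RANKL against day 0. The median size of the change over all genes was 0.18 on the left and 0.46 on the right.

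Levels of different genes were compared on the TPM scale, which is scaled for transcript length. With RANKL and acetate the order of mean TPM was Adam8 at 755, Cd9 at 429, Cd44 at 288, Sirpa at 280, Cd47 at 132, Cd82 at 93.5, Cd81 at 72.1, Dcstamp at 12.8, Ocstamp at 6.55 and Tm4sf19 at 4.0. No neighbours in that order overlapped between libraries. With RANKL alone the order was Adam8 at 684, Cd9 at 344, Cd44 at 268, Sirpa at 228, Cd82 at 111, Cd47 at 107, Dcstamp at 44.5, Cd81 at 33.9, Ocstamp at 28.2 and Tm4sf19 at 9.74, and the libraries of Cd82 and Cd47 overlapped. At day 0 Adam8 at 1270 was followed by Sirpa at 722, Cd9 at 393, Cd44 at 179, Cd81 at 117, Cd47 at 100, Cd82 at 22.4, Dcstamp at 0.56, Tm4sf19 at 0.55 and Ocstamp at 0.045, where Dcstamp and Tm4sf19 overlapped. Dcstamp thus ranked above Cd81 in both libraries with RANKL alone and below it in both libraries of each other group.

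Transcripts were described from the deposited transcript TPM, with no test, because RSEM estimates how reads that transcripts share are divided. Of 54 transcripts of the 10 genes, 51 had the same length in GENCODE M21 as in the deposited table. The Cd44 mixture was steady. Cd44-203 made up 61.8% and 61.7% of Cd44 TPM with RANKL and acetate, 61.7% and 62.6% with RANKL, and 61.9% and 59.8% at day 0. Cd44-207 made up 35.3% and 36.4% with RANKL and acetate, 36.4% and 35.6% with RANKL, and 35.8% and 37.6% at day 0. Beside the 5 extra internal exons that follow the junction printed above, 636 bases in all, Cd44-207 has a last exon of 3197 bases where Cd44-203 has 1791. Its first exon is also longer, 398 bases against 243 in Cd44-203. The share of Cd44-207 can therefore reflect variant exons or the longer 5′ or 3′ end, which cannot be told apart in these values. A further 5 transcripts with variant exons have last exons of at most 1808 bases, and together they made up 0.774% to 1.74% of Cd44 TPM. Cd44-201, with variant exons and the same last exon of 3197 bases, made up 0% to 0.48%.

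Cd47-202, the form with the short last exon (223 bases, against 4142 in Cd47-201), made up 75.0% and 76.3% of Cd47 TPM with RANKL and acetate, 78.4% and 77.6% with RANKL, and 73.0% and 71.7% at day 0. Its share was highest in the RANKL libraries and lowest at day 0, without overlap. As a share of expected counts, Cd47-202 made up 27.1% and 28.5% with RANKL and acetate, 31.0% and 29.9% with RANKL, and 25.0% and 23.8% at day 0. The deposited length of Cd47-202 is 867 bases, where GENCODE M21 has 1175, and that of Cd47-201 is 5277, where it has 5250. The exons of both given here may therefore differ from those counted. Cd82-201 made up 79.2% and 80.2% of Cd82 TPM with RANKL and acetate, 82.6% and 80.8% with RANKL, and 83.2% and 61.7% at day 0. The day 0 libraries thus disagreed, at 258 and 231 counts for the whole gene. Adam8-206, a processed transcript of 367 bases, was a minor form, with 2.5% and 2.77% of Adam8 TPM with RANKL and acetate, 1.26% and 1.58% with RANKL, and 3.85% and 4.27% at day 0. Cd9-201 and Cd81-201 each held at least 95.9% of their gene in every library.

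**Figure D4:**
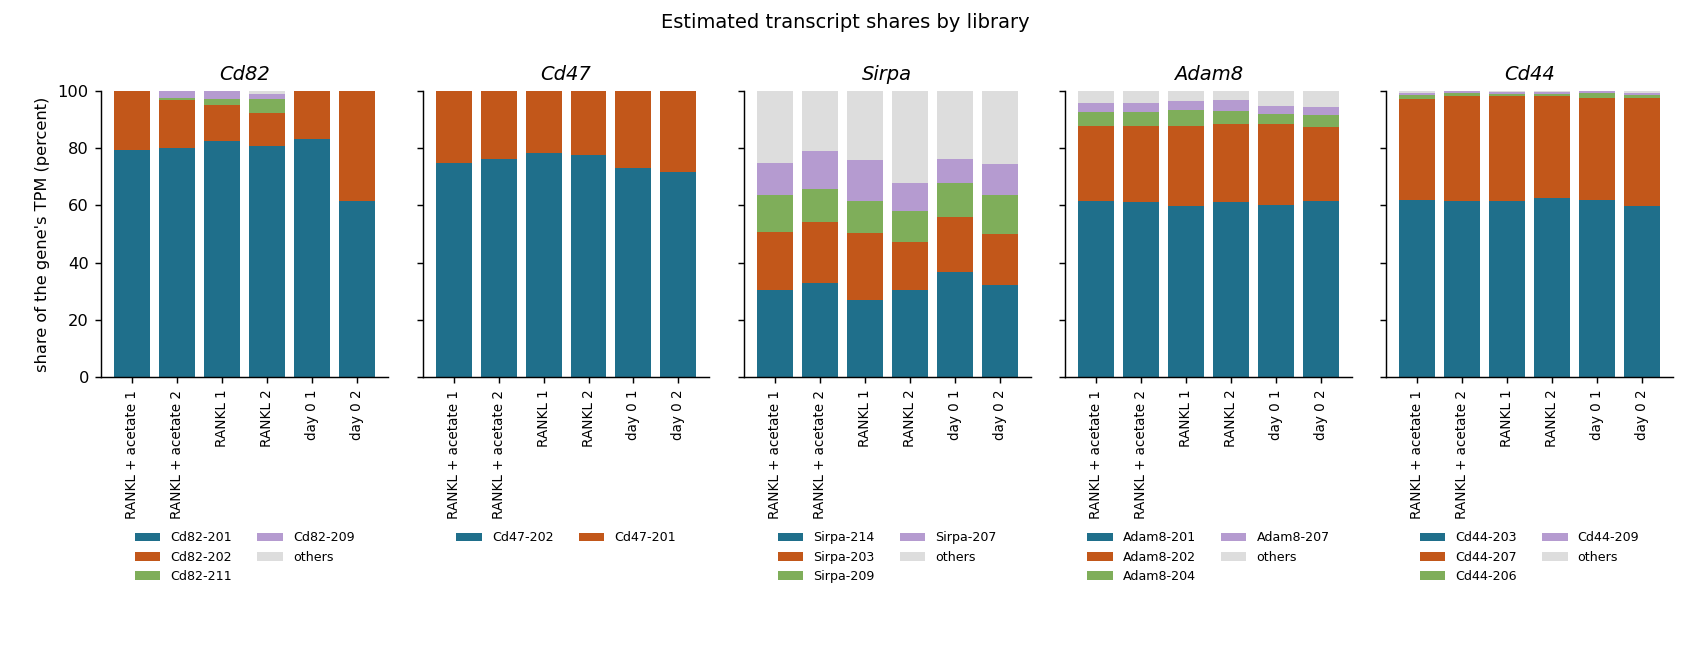
Estimated share of each transcript in its gene's TPM (vertical axis, percent) in the 6 libraries (horizontal axis, numbers are replicates) for the 5 genes with more than 1 sizeable transcript. The Cd44 bars are nearly alike, and Cd82-201 drops to 61.7% in 1 day 0 library.

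Other genes tied to fusion moved in both directions. Of 28 genes of that list, 24 were tested. Like the other lists, it was chosen with earlier results of these data known, so its counts are descriptions. With acetate beside RANKL alone, 10 were called higher and 10 lower, 20 of 24 beside 30.4% of all genes, with a median log2 fold change of -0.01, beside 0 for all genes. Mmp9, a matrix metalloprotease of osteoclasts, fell by 2.21 ± 0.04 and was at 313 and 292 CPM with acetate, against 1400 and 1400 CPM with RANKL. Atp6v0d2, a proton pump subunit that mouse precursors need to fuse, fell by 1.71 ± 0.07. In the other direction, the chemokine gene Ccl2 rose by 2.10 ± 0.04, with 553 and 508 CPM with acetate against 127 and 121 CPM with RANKL, and the scavenger receptor gene Cd36 by 0.99 ± 0.04, with 355 and 365 CPM with acetate against 182 and 181 CPM with RANKL. The largest edgeR adjusted p of these 4 was 1.94e-20. With RANKL alone against day 0, 9 were called higher and 13 lower, beside 66.3% of all genes called, with a median of -0.32. Mmp9 rose by 6.98 ± 0.06 and Atp6v0d2 by 5.94 ± 0.12, while Ccl2 fell by 3.16 ± 0.04 and Cd36 fell by 2.95 ± 0.04. With RANKL and acetate against day 0, 8 were called higher and 11 lower, beside 60.7% of all genes called, with a median of -0.20.

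Of 27 other tetraspanin genes, 15 were tested. With acetate beside RANKL alone, 6 were called higher and 1 lower, beside 16.7% and 13.7% of all genes, with a median of 0.25. DESeq2 called 4 of them, all higher. Cd53, a tetraspanin of leukocytes, rose by 0.73 ± 0.06 (edgeR adjusted p = 4.82e-12), with 127 and 131 CPM with acetate against 84.2 and 71.5 CPM with RANKL. Tspan3 and Tspan31 each rose by 0.38. For RANKL alone against day 0, 2 of the 15 were called higher and 10 lower, beside 32.8% and 33.5% of all genes, with a median of -0.63, and Cd53 fell by 2.05 ± 0.06. Against day 0, with RANKL and acetate, 3 were called higher and 6 lower, beside 30.3% and 30.4% of all genes, with a median of -0.17. None of the 4 other TM4SF genes listed, Tm4sf1, Tm4sf4, Tm4sf5 and Tm4sf20, had enough counts to be tested, with 0 to 6 counts over the 6 libraries. Tm4sf19 was thus the 1 gene of that family that could be measured.

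All 8 genes for tetraspanin partners were tested, and 5 were called higher and 2 lower with acetate beside RANKL alone, where 30.4% of all genes were called, with a median of 0.23. The integrin gene Itga6 rose by 0.45 ± 0.04, and the sheddase genes Adam17 and Adam10 by 0.34 ± 0.04 and 0.27 ± 0.04. After RANKL alone, compared with day 0, 2 were higher and 4 lower, with a median of -0.03, and the count of 6 of 8 is near the 66.3% of all genes called. Itga6 fell by 1.75 ± 0.04. For RANKL and acetate against day 0, 2 were higher and 3 lower, near the 60.7% of all genes called, with a median of -0.32.

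Of 13 genes for partners of CD47 and SIRPα, 12 were tested, of which 5 were called higher and 1 lower with acetate beside RANKL alone, where 30.4% of all genes were called, with a median of 0.24. Ptk2b, the kinase PYK2, rose by 0.83 ± 0.07 and Fyb, an adaptor, by 0.47 ± 0.05. Sirpb1c, 1 of the Sirpb1 genes that Sirpa resembles, rose by 1.2 ± 0.17. It was at 15.5 and 18.0 CPM with acetate, against 7.8 and 6.73 CPM with RANKL. Icam1, an adhesion receptor, fell by 0.19 ± 0.05. For RANKL alone against day 0, 2 were called higher and 7 lower, 9 of 12 beside 66.3% of all genes, with a median of -0.50. Icam1 rose by 2.0 ± 0.06 and Ptk2b fell by 1.62 ± 0.06. Against day 0, with RANKL and acetate, 3 were higher and 5 lower, 8 of 12 beside 60.7% of all genes, with a median of 0.05.

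Of 14 genes for CD44 ligands, partners and hyaluronan enzymes, 11 were tested, of which 7 were called higher and 1 lower with acetate beside RANKL alone, beside 16.7% and 13.7% of all genes, with a median of 0.22. Spp1, which encodes osteopontin, stood at 4710 and 4740 CPM with acetate, against 1060 and 1080 CPM with RANKL, a 4.41-fold increase (log2 2.14 ± 0.03, edgeR adjusted p = 4.26e-35). Its receptor gene Cd44 differed 1.09-fold between the same libraries. Ezr, which links CD44 to actin, rose by 0.49 ± 0.05. After RANKL alone, compared with day 0, 3 were called higher and 5 lower, 8 of 11 beside 66.3% of all genes, with a median of 0.00. Spp1 fell by 1.79 ± 0.03, while Vcan, a hyaluronan-binding proteoglycan, rose by 2.91 ± 0.15. For RANKL and acetate against day 0, 3 were higher and 3 lower, 6 of 11 beside 60.7% of all genes, with a median of 0.08.

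Of 15 transcription factor genes of osteoclast precursors, all tested, 4 were called higher and 7 lower with acetate beside RANKL alone, where 30.4% of all genes were called, with a median of -0.13. Nfatc1, whose product drives Dcstamp transcription in mice, was at 232 and 214 CPM with acetate, against 529 and 518 CPM with RANKL, and fell by 1.23 ± 0.04. Fosl2 fell by 1.33 ± 0.04 and Jdp2 by 0.95 ± 0.04. After RANKL alone, compared with day 0, 8 were higher and 5 lower, beside 66.3% of all genes called, with a median of 0.41, and with RANKL and acetate against day 0, 8 were higher and 4 lower, beside 60.7%, with a median of 0.28. The markers of osteoclasts, a list of 8 that holds Nfatc1, Mmp9 and Atp6v0d2 and whose Calcr had 0 counts, summed to 776 to 828 CPM with RANKL and acetate, 2950 in both RANKL libraries and 81.0 to 83.4 at day 0. Their sum moved together with Dcstamp, Ocstamp and Tm4sf19, and Mmp9 alone was at 1400 CPM in both RANKL libraries. The part of these markers in the results for Dcstamp, Ocstamp and Tm4sf19 was not tested.

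**Figure D5:**
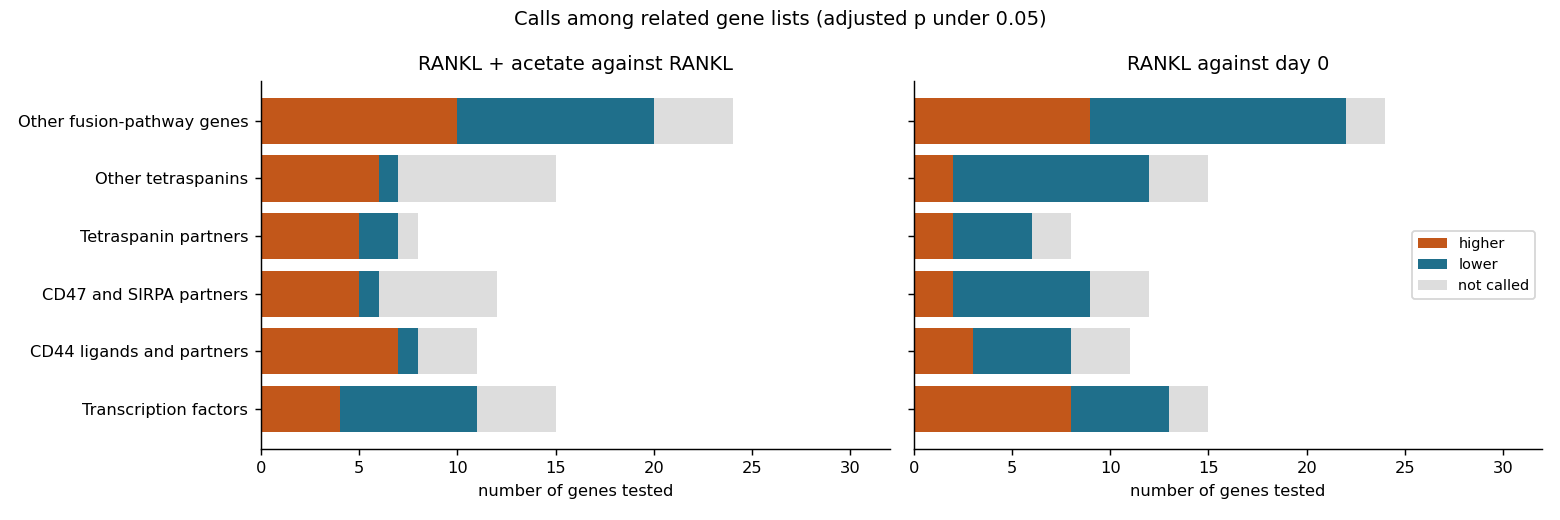
Number of genes tested in each related list (horizontal axis) that were called higher, called lower or not called at an edgeR adjusted p of 0.05, with acetate beside RANKL alone (left) and with RANKL against day 0 (right). Among the other tetraspanins, 6 were higher and 1 lower on the left, and 2 higher and 10 lower on the right.

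The genes most like each fusion gene were found over 8867 genes that averaged 10 CPM or more, as those with the smallest root mean square difference in log2 CPM after each gene was centred on its mean over the 6 libraries. The points share the same 6 libraries, so this describes likeness only. The genes nearest to Dcstamp were Atp6v0d2 at 0.18, Mmp14 at 0.23 and Ltbp1 at 0.26, and 2 genes in all lay within 0.25. Those nearest to Ocstamp were Ctsk at 0.45, Car2 at 0.55 and Gm19026 at 0.56, and those nearest to Tm4sf19 were Btbd11 at 0.26, Dusp9 at 0.31 and Pvrl1 at 0.38, with no gene within 0.25 of either.

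For the other members the neighbours were closer and more numerous. The distance depends on the size of a gene's changes and on noise at low counts. Cd9 and Cd47 changed little, while Dcstamp, Ocstamp and Tm4sf19 changed much and had few counts at day 0. Tm4sf19 itself was under the 10 CPM asked of neighbours. The numbers of neighbours therefore do not show that a pattern is particular to a gene. Ncf1 at 0.05, Cbx6 at 0.07 and Samsn1 at 0.07 were nearest to Cd81, with 167 genes within 0.25. Enc1 at 0.06, Sema4d at 0.06 and Jarid2 at 0.08 were nearest to Cd82, with 67. Paox at 0.03, Slc48a1 at 0.03 and Gna12 at 0.04 were nearest to Sirpa, with 393. Dnm2, Vat1 and Myl6 were nearest to Adam8, with 1742, and Ddx24, Hax1 and Ints5 to Cd44, with 2716. Rtp4, Zfp41 and Ascc3 were nearest to Cd47, with 3285, and Lgals3bp, Lta4h and Tpst2 to Cd9, with 3925.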

How the data were processed

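Messenger RNA of 6 libraries in 3 groups of 2 was analysed. Groups came from the sample titles; in each group the title ending in 1 is replicate 1 and the title without a number replicate 2. Per the labels' protocols, total RNA was cleared of DNA and a SMARTER kit was used for the libraries. Per the submitters' processing notes, Trimmomatic 0.39, STAR, RSEM 1.3.1 and DESeq2 1.26.0 were used on GRCm38. The expected counts deposited by the authors are RSEM estimates with no normalization. The deposited TPM and FPKM are the authors' values scaled by transcript length and depth. The sources used here give neither the gene annotation nor the strand setting. Of the gene counts, 97.1% were within 0.005 of a whole number.

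Counts were rounded and tested in R 4.3.3 with edgeR 4.0.16: filterByExpr (minimum count 10, minimum total 15), TMM factors of 0.952 to 1.037, and 1 mean per group over 6 libraries (3 residual and 29.5 prior degrees of freedom). The SE is the log2 fold change, without its sign, divided by the square root of F. The code was tested on simulated data. Count ratios used TMM-scaled totals. With 2 libraries against 2, no two-sided permutation p is below 0.333, so tests rest on a spread pooled over genes. The 18 alternatives were limma-voom (limma 3.58.1), DESeq2 1.42.0, RLE or upper-quartile factors, library totals, no low-count filter, at least 5 CPM in 2 libraries, only the groups compared, a replicate block, limma on log2 TPM (0.1 or 1 added) or FPKM (0.1 added), and leaving out each library. All 10 members are named; up to 4 genes with the smallest adjusted p were taken from each list, and 3 neighbours per member. Members and lists were chosen with earlier results of these data known. A further gene list is not reported here.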

Additional observations from a re-analysis of the deposited data

How the results depend on the processing

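Of 30 differences (10 genes, 3 comparisons), 23 kept their direction and side of the threshold in all 18 alternatives; the exceptions were Cd82, Cd44, Adam8 and Tm4sf19 with acetate beside RANKL, Cd9 against day 0 in both comparisons, and Cd47 in RANKL against day 0. The Cd47 value was 0.01 with library totals, 0.10 and 0.09 on TPM scales and 0.21 on the FPKM scale; the cause was not tested. The median of all genes in that comparison was 0.1283 with library totals and 0.127 on the FPKM scale, beside 0.0101 as reported. Leaving out each library gave 8 to 10 genes called with acetate beside RANKL, 9 to 10 for RANKL against day 0 and 9 to 10 for RANKL with acetate against day 0. A group left with 1 library was assumed to vary like the others. A replicate block left 10, 9 and 10 genes called and 3611, 8028 and 7371 over all genes, beside 3717, 8106 and 7419. Deviations of same-numbered libraries correlated at -0.01, -0.08 and -0.03 over all genes tested. These values show no pairing by number, but counting noise enters them. They cannot tell whether same-numbered libraries shared an animal or culture. Genes called with acetate beside RANKL were 2199 with DESeq2, 1843 and 1908 on log2 TPM with 0.1 and 1 added, and 1894 on log2 FPKM; the cause was not tested. DESeq2 called 4 other tetraspanins there, against 7. For RANKL against day 0, leaving out 1 day 0 library gave 8.30 or 12.54 for Ocstamp, 6.72 or 5.97 for Dcstamp and 5.02 or 3.57 for Tm4sf19, and adding 1 to TPM, which shrinks low values by construction, gave 4.80, 4.87 and 2.81. As shares of transcript expected counts, which weight long transcripts more by construction, the means were 27.6% for Cd47-202, 41.4% for Sirpa-214, 65.0% for Adam8-201 and 47.5% for Cd44-203. Depth limits the day 0 levels of Dcstamp, Ocstamp and Tm4sf19, at 14, 2 and 8 counts.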
